A study of Mus musculus with 2 samples.

Results

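The clustered histone genes are the genes in the histone clusters of the mouse genome that encode the linker histone H1 and the core histones H2a, H2b, H3 and H4. They were taken as every gene with a non-control probe on the array whose name begins with Hist1h, Hist2h, Hist3h or Hist4h, and 49 of the 36400 gene names on the array met this rule. The brightest of a gene's probes over both arrays stood for the gene. The cells were neural stem and progenitor cells (NSPCs), which the study derived from embryonic stem cells of the mouse by way of embryoid bodies and kept as tertiary neurospheres, floating spheres at passage 2. One group held control cells and the other held cells that overexpress the microRNA miR-153, both at day 18 counted from the embryoid bodies, with 1 array in each group. The labels name neither the vector nor the embryonic stem cell line, and the level of miR-153 itself was not analysed here. With 1 array per group there was no replicate check and no test, so every difference below compares these 2 arrays, and a difference of at least 2-fold is a rule of size.

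The mature microRNA, from RefSeq with the table's build GRCm38.p6, is shown to identify what was overexpressed, with its seed (bases 2 to 8) in capitals.
mmu-miR-153-3p: uUGCAUAGucacaaaagugauc

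Histones package DNA into nucleosomes, and the clustered genes supply the bulk of new histones while DNA is copied in S phase. Most of them have no introns, and their usual mRNAs end in a conserved stem-loop instead of a poly(A) tail. Some clustered genes also make longer, polyadenylated transcripts that run past the stem-loop, a form known from cells that differentiate or leave the cell cycle. The labelling kit named in the labels starts from the poly(A) tail, and which transcript form gave each signal was not measured.

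The 49 genes had 54 probes of 60 bases, and 48 of the genes were matched to a RefSeq gene by transcript accession. The site of a probe on its transcript differed between genes, and these classes of site were drawn up after the values had been seen. Of the probes used, 8 ended on the last codon of the coding region, 5 held the stem-loop with fewer than 30 bases after it, 15 lay past the stem-loop, and 21 lay elsewhere in the coding region, in the 5′ part or across the stop codon. A probe was placed past the stem-loop when at least 30 bases followed the hairpin, when it started at base 500 or later of its transcript (800 for H1), or when it started beyond the length of the RefSeq gene. The probes of 15 members shared a run of at least 20 bases with the probe of another member, and 14 members' probes are listed in the files against several RefSeq transcripts. Among 7 H2a members the shared runs were 20 to 42 bases long and lay in the coding region, so their values are uncertain as values of single genes. Hist1h3a, Hist1h3i, Hist2h2bb and Hist2h2aa1 share 20 to 22 bases around the stem-loop, across histone types, and the other sharing pairs were Hist1h3c with Hist1h3f and Hist1h4d with Hist1h4j.

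The H2a probes at the end of the coding region are shown because most of the lower members rest on them. Capitals mark bases that lie in a run of at least 8 bases also found in the Hist1h2ah probe, which is in capitals throughout. The probe of Hist2h2ab, whose value differed from theirs, covers the same stretch of its own gene and shares no such run; it does not end on a whole stop codon and was classed with the other coding probes.
Hist1h2ah: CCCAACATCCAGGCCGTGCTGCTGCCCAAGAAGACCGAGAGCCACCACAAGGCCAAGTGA
Hist1h2af: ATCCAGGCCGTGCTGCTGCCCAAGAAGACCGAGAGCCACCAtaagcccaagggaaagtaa
Hist1h2ak: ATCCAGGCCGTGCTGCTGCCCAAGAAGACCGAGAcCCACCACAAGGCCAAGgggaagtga
Hist1h2an: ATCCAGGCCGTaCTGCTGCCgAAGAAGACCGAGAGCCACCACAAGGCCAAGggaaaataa
Hist2h2aa2: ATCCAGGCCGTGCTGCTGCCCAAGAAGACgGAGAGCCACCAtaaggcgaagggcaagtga
Hist2h2ac: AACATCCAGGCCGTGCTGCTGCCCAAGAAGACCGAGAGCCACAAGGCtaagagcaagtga
Hist2h2ab: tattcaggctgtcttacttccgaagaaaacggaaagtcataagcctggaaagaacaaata

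The stem-loops found in the used probes are shown next because they place those probes at the 3′ end of the usual histone mRNA. Capitals mark the arms of the hairpin, a 6-base arm that begins with GG, a 4-base loop that begins with T, and the reverse complement of the arm. This form occurred in 6 members' probes and in 16 of all 55674 probes (0.0287%). In Hist2h2aa1 a further 38 bases of the probe follow the hairpin, against 3 to 6 bases in the other 5.
Hist1h3a: ccaaaGGCTCTtttcAGAGCCaca
Hist1h3g: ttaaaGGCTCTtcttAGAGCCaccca
Hist1h3i: caaaaGGCTCTtttcAGAGCCccctc
Hist1h4m: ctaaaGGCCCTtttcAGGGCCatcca
Hist2h2bb: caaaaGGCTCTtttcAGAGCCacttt
Hist2h2aa1: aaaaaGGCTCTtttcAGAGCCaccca

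Most clustered histone genes gave signal on both arrays. Of the 49 members, 42 (85.7%) were well above background on both, 2 with control only, 3 with miR-153 only and 2 on neither. Over all gene names the share measured on both arrays was 56.1%. All 8 H3 and all 9 H4 members were measured on both, as were 5 of 6 H1, 12 of 14 H2a and 8 of 12 H2b members. Hist1h1d, a linker histone gene, and Hist3h2bb-ps, named as an H2b pseudogene, stayed below that mark on both.

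The clustered histone genes did not move one way: of the 42 measured members, 10 had a miR-153 level lower by 2-fold or more and 4 had one higher by as much. The background over all 20437 genes measured on both arrays was 11.0% lower and 9.23% higher. The median difference of the members, as log2 of miR-153 over control, was -0.36, beside -0.11 over all genes, with 26 members below 0 and 16 above. The count of lower members depends on scaling: under quantile normalization, spike-in scaling and lowess it was 3 in place of 10. Over all genes the share at least 2-fold lower was then 9.59%, 7.54% and 9.56%. The 7 that then fell short of 2-fold were the bright H2a members whose probes share sequence, and the share of the called members that were higher went from 28.6% to 62.5%. Under spike-in scaling, which adds 0.24 to every log2 difference, the share of called genes that were higher went from 45.5% to 64.6% over all genes, and under quantile normalization and lowess to 51.1% and 51.0%. The 4 higher members and the 3 lower members Hist1h3g, Hist1h2ab and Hist1h4m stayed at least 2-fold apart in all 9 settings.

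**Figure D1:**
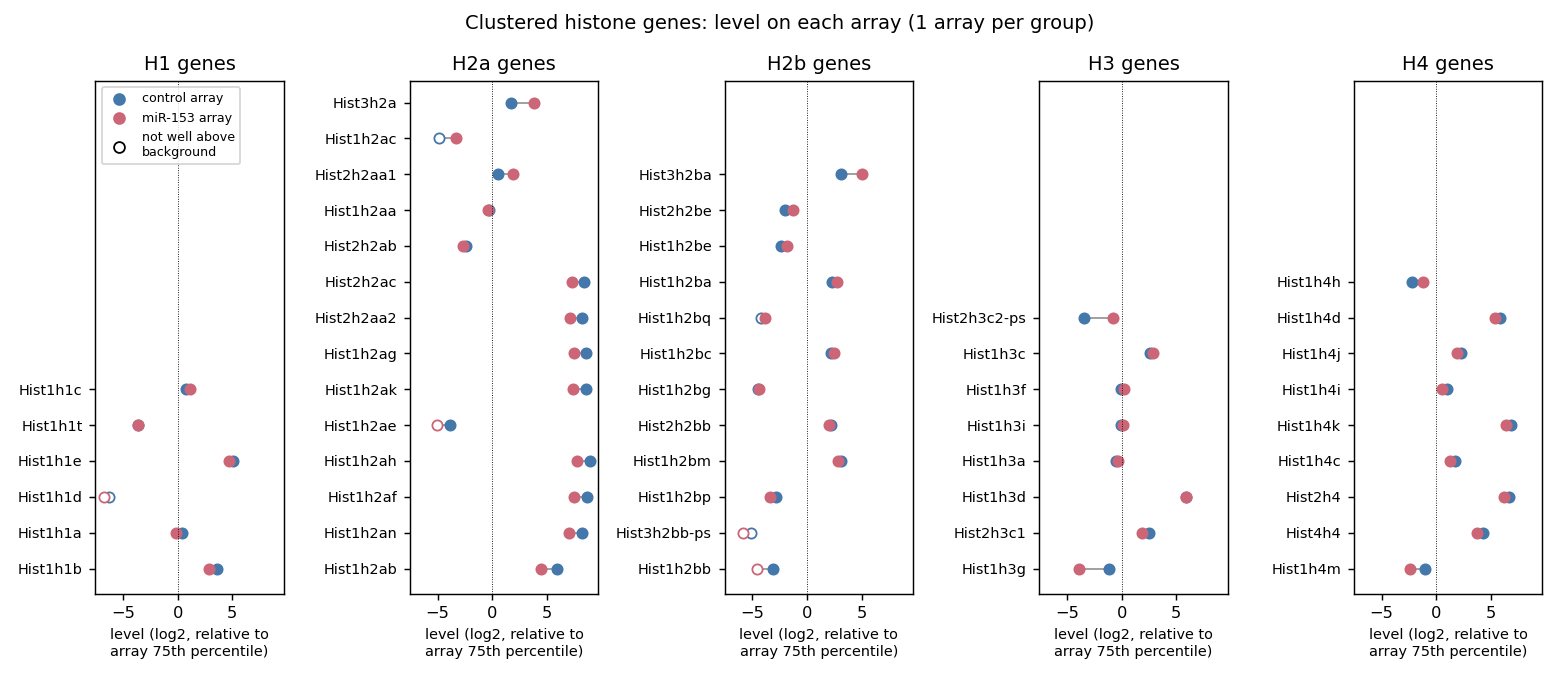
Level of each of the 49 members on the control array (blue) and the miR-153 array (red), by histone type, as log2 of the signal relative to the 75th percentile of its array; open circles were not well above background, and members are ordered by difference within a type. The bright H2a members sit near 8 on the control array and near 7 on the miR-153 array, while Hist3h2a and Hist3h2ba lie to the right on the miR-153 array. Levels of different genes come from different probes and are not to be set against each other.

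H2a, which pairs with H2b in the nucleosome, had the most lower members of the types with scaling to the 75th percentile. Of its 12 measured members 8 were lower, 2 were higher and 2 lay between, with a median of -1.11. Under quantile normalization, spike-in scaling and lowess it had 1 lower member, as had H3 and H4, with medians of -0.50, -0.88 and -0.44. Hist1h2ab had a log2 level of 5.93 on the control and 4.44 on the miR-153 array, a difference of -1.49, read by a probe at mm9 chr13:23843392-23843451. Its control array was the higher one, and its probe shares no run of 20 bases with another member's. Hist1h2an went from 8.22 to 6.99 (-1.23) and Hist1h2af from 8.62 to 7.44 (-1.17), again with the higher level on the control array.

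The other 5 lower H2a members were Hist1h2ah, Hist1h2ak, Hist1h2ag, Hist2h2aa2 and Hist2h2ac, named here after their values were seen. Their control levels lay between 8.21 and 8.91 and their miR-153 levels between 7.10 and 7.74, with differences of -1.16 to -1.08. With Hist1h2an and Hist1h2af they are the 7 members of shared sequence, so their near-equal differences are not 7 independent readings. Leaving these 7 out, 35 measured members remain, with 4 higher, 3 lower and a median of -0.22. Hist1h2ak has a second probe that shares no run of 20 bases with another member, at mm9 chr13:21845637-21845696, and it gave 5.84 on the control and 4.28 on the miR-153 array (-1.56). The position given in the files for the Hist1h2ag probe spans far more than the 60 bases of the probe and is not printed.

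The 7 members are among the brightest readings on the arrays, and bright genes as a whole differed too. In 221 genes at least as bright as the dimmest of the 7, the median difference was -0.57, 214 were below 0, and 18 (8.14%) were at least 2-fold lower, the 7 members among them. In the brightest eighth of all genes, 2555 in number, the median was -0.43. The part of brightness in these calls was not tested beyond the scaling settings, in which lowess left the 7 between -0.60 and -0.43.

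**Figure D2:**
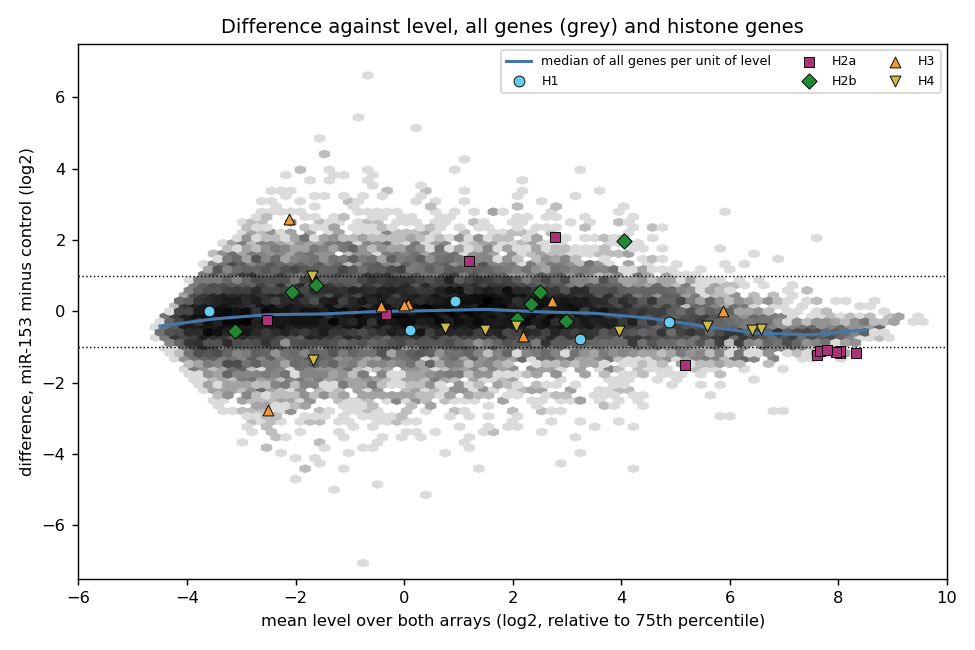
Difference (log2, miR-153 minus control) against mean level over both arrays (log2, relative to the 75th percentile) for all genes measured on both arrays (grey, darker where more genes lie) and the 42 measured histone members (coloured by type). The blue line is the median of all genes per unit of level; it bends below 0 at the bright end, where 7 H2a members lie below it, and the dotted lines mark 2-fold.

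Both higher H2a members were read by probes classed as past the stem-loop, and that of Hist2h2aa1 also holds the stem-loop. Hist3h2a, the H2a gene of the small cluster on chromosome 11, had a level of 1.75 on the control and 3.83 on the miR-153 array, a difference of 2.08, with its probe at mm9 chr11:58768954-58769013. Hist2h2aa1 had 0.49 and 1.90, a difference of 1.42, with its probe at mm9 chr3:96049949-96050008. For both, the miR-153 array was the higher one. The files place the probe named for Hist2h2aa2 at mm9 chr3:96049837-96049896, with 52 bases between its end and the start of the Hist2h2aa1 probe. The one ends on the stop codon and was lower, the other runs past the hairpin and was higher, so these neighbouring stretches differed in opposite directions. The first is listed against 2 RefSeq transcripts, and its value cannot be given to 1 gene. The second shares runs of 20 bases or more around the hairpin with the probes of 3 other members. The smallest H2a differences were those of Hist1h2aa (-0.30 and -0.37, difference -0.07) and Hist2h2ab (-2.41 and -2.64, difference -0.23), so neither was apart by 2-fold.

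Hist1h2ac and Hist1h2ae were measured on a single array, so only a bound can be given for them. For such a bound the other array is given the gene's own signal or the dimmest level that still counted as well above background there, whichever is higher. That dimmest level was -4.49 for control and -4.94 for miR-153. Over all genes measured on 1 array, 36.6% had a bound of at least 2-fold. Hist1h2ac had a miR-153 level of -3.29, at least 2.29-fold above control. Hist1h2ae was at least 2.05-fold higher on the control array, where its level was -3.90.

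H2b members gave 1 higher and 0 lower member among 8 measured, with a median of 0.36. Of these, Hist1h2bc, Hist1h2be, Hist1h2bp, Hist2h2be and Hist3h2ba were read past the stem-loop. Of the measured H2a members only Hist3h2a and Hist2h2aa1 were, so histone type and probe site cannot be told apart here. The H2b members read elsewhere were Hist1h2ba (0.53), Hist1h2bm (-0.27) and Hist2h2bb (-0.22). Hist3h2ba, the H2b gene of the chromosome 11 cluster, had 3.07 on the control and 5.04 on the miR-153 array, a difference of 1.96, read at mm9 chr11:58762964-58763023. Its miR-153 level was the higher one by almost the same log2 difference as that of its neighbour Hist3h2a. Its probe lies past the end of the RefSeq gene and holds the polyadenylation signal letters AATAAA, shown in capitals. These letters are in the used probes of 2 members, the other being Hist1h2ag, a lower member (-1.12). In the Hist1h2ag probe they run across the end of the coding region, so there they are a match of letters only. Of all probes on the array 10.1% hold them.
Hist3h2ba: taatggtattAATAAAtttggttca

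The remaining H2b members lay within 2-fold on either side. Hist2h2be (-2.01 and -1.26, difference 0.75), Hist1h2be (-2.34 and -1.80, 0.54) and Hist1h2ba (2.24 and 2.78, 0.53) had the higher level on the miR-153 array. Hist1h2bp had it on the control array (-2.85 and -3.39, -0.54). The smallest differences were those of Hist1h2bc (0.20) and Hist2h2bb (-0.22). Hist1h2ba, like Hist1h2aa, is known from the testis.

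Of the H2b members measured on 1 array, Hist1h2bb was at least 2.90-fold higher on the control array, at a level of -3.06. The bounds for Hist1h2bq and Hist1h2bg, measured on the miR-153 array only, were 1.28-fold and 1.04-fold and fall short of the rule. All 3 were dim.

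Genes of H2a and H2b often lie head to head and share a stretch of upstream DNA. Among the members, 3 such pairs could be set side by side from the RefSeq table. Hist1h2an and Hist1h2bp, with 234 bases between their starts, differed by -1.23 and -0.54. Hist1h2aa and Hist1h2ba, with 280 bases between, differed by -0.07 and 0.53. Of the third pair, Hist1h2ae was measured on the control array only and Hist1h2bg on the miR-153 array only. In the 2 pairs measured on both arrays the H2b gene had the more positive difference. The Hist1h2an probe lies at the coding end, is listed against 4 RefSeq transcripts and shares sequence with other members. That of Hist1h2bp is dim and lies past the stem-loop, so this pair is not read at like sites.

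H3 members mostly differed little, with 1 higher, 1 lower, 6 between and a median of 0.16. Hist1h3g had -1.12 on the control and -3.89 on the miR-153 array, a difference of -2.76 that was the lowest of all 42 members, read at mm9 chr13:23627719-23627778 by a probe that holds the stem-loop. Hist2h3c2-ps had -3.40 and -0.82, a difference of 2.58 that was the highest, and the files give its probe no position. Both were dim on the array where they were lower, and with normexp background correction, which shrinks differences of dim probes, they became -1.62 and 1.41.

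The other H3 members lay close together on both arrays. Hist2h3c1 (2.54 and 1.84) was higher on the control array, a difference of -0.70. Hist1h3c (2.58 and 2.87, 0.28) and Hist1h3f (-0.03 and 0.17, 0.20) were slightly higher on the miR-153 array. Hist1h3d had the smallest difference, 0.02, at levels of 5.87 and 5.88, followed by Hist1h3a at 0.14. The probes of Hist1h3c and Hist1h3f share a run of 36 bases, so their values are not independent readings.

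H4, which forms a pair with H3 in the nucleosome, had 0 higher and 1 lower member among 9, with a median of -0.50 and 8 of the 9 below 0. Hist1h4m had -0.99 on the control and -2.36 on the miR-153 array, a difference of -1.37, read across its stem-loop at mm9 chr13:21903960-21904019. Its control level was the higher one. Hist1h4h went the other way, from -2.19 to -1.21 (0.98), just short of 2-fold; under quantile normalization, spike-in scaling and lowess it passed the rule as a further higher member.

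The other H4 members were slightly higher on the control array. Hist4h4 (4.23 and 3.68, -0.55), Hist2h4 (6.66 and 6.14, -0.53) and Hist1h4c (1.75 and 1.22, -0.53) differed most among them, and Hist1h4d (-0.41) and Hist1h4j (-0.42) least. For 2 H4 genes a second probe was measured on both arrays and is given here after its value was seen. The probes of Hist1h4k gave -0.50 and -0.38. The probes of Hist1h4i gave -0.48 for the brighter one and -1.14 for the other, so the call for Hist1h4i depends on the probe. The files place the brighter one nowhere in the genome, and it shares a run of at least 20 bases with a probe of the unrelated gene Galns. Its value is therefore uncertain as a value of Hist1h4i.

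H1, the linker histone that binds DNA between nucleosomes, had 0 members past 2-fold among 5 measured, with a median of -0.31. Hist1h1b was the farthest apart, with 3.64 on the control and 2.86 on the miR-153 array (-0.78). Hist1h1a (0.37 and -0.17, -0.53) and Hist1h1e (5.03 and 4.72, -0.31) were likewise higher on the control array by less than 2-fold. Hist1h1c, the only measured H1 member read past the stem-loop, was higher on the miR-153 array (0.79 and 1.09, 0.30). The probe of Hist1h1d, well above background on neither array, is also classed there. Hist1h1t, known as the testis form, had -3.59 and -3.58, a difference of 0.01.

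By cluster, the large Hist1 cluster on chromosome 13 held 30 measured members, of which 8 were lower and 0 higher, with a median of -0.41. The Hist2 cluster on chromosome 3 had 2 lower and 2 higher members among 9. In the Hist3 cluster on chromosome 11 both measured members, Hist3h2a and Hist3h2ba, were higher. The Hist4 gene, Hist4h4, lay between. The lower Hist2 members, Hist2h2aa2 and Hist2h2ac, and most lower Hist1 members are H2a members whose probes share sequence, in part across the clusters. Their values cannot be given to a single cluster. Under quantile normalization, spike-in scaling and lowess these shared-sequence members fell inside 2-fold. In those settings Hist1h2ab, Hist1h3g and Hist1h4m stayed lower, and Hist1h4h was a higher member of Hist1.

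By the site of the probe, the members fell in different places. All 8 members read at the end of the coding region were below 0, with a median of -1.12, 6 lower and 0 higher; 6 of the 8 are H2a probes of shared sequence. Of 10 measured members read past the stem-loop 8 were above 0, with a median of 0.65, 4 higher and 0 lower. All 4 higher members were read there, but the Hist2h2aa1 probe also holds the stem-loop and is in this class only by the 38 bases that follow. The files give no genome position for the probes of Hist2h3c2-ps, a higher member, and Hist1h4i. Both are in this class by the start base given in the files, so their site is uncertain. Of 5 read at the stem-loop 2 were lower (Hist1h3g and Hist1h4m) and 0 higher, with a median of -0.22, and of 19 read elsewhere in the coding or 5′ part 2 were lower and 0 higher, with a median of -0.41. Under quantile normalization, spike-in scaling and lowess 0 of the 8 members at the end of the coding region were 2-fold lower, with medians of -0.50, -0.88 and -0.45, and Hist1h4k was just above 0 under quantile normalization and lowess. In those 3 settings Hist1h4h, read in the 5′ part, was a higher member outside the stretch past the stem-loop, while the 10 members read there kept 4 higher and 0 lower in all 9 settings. Only Hist1h4i, Hist1h2ak and Hist1h4k were measured on both arrays at 2 of these sites, with the values given above: -0.48 past the stem-loop and -1.14 in the 5′ part, -1.13 at the coding end and -1.56 in the 5′ part, and -0.50 and -0.38 in the same order. For the other members the site goes with the gene, and the part of the site in their differences was not tested.

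**Figure D3:**
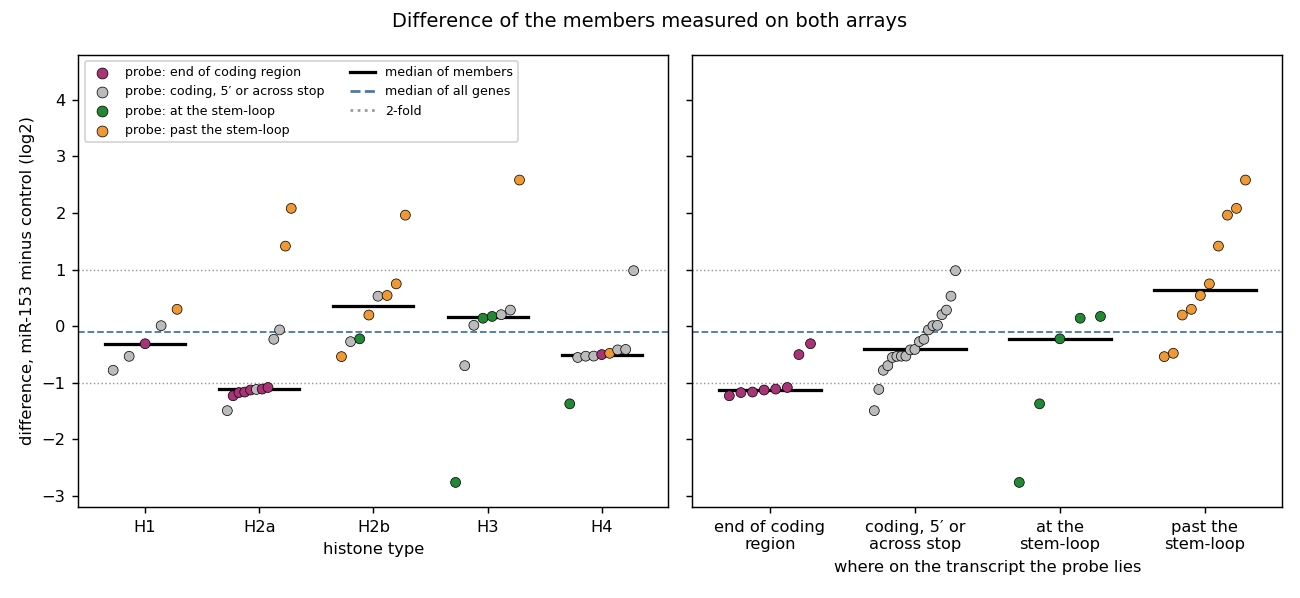
Difference (log2, miR-153 minus control) of the 42 members measured on both arrays, by histone type (left) and by where the probe lies on the transcript (right); each point is 1 gene, bars are medians, the dashed line is the median of all genes (-0.11) and dotted lines mark 2-fold. The 4 points above the upper dotted line are all probes classed as past the stem-loop (orange). Of these, that of Hist2h2aa1 also holds it and that of Hist2h3c2-ps has no genome position in the files. The H2a column holds 8 of the 10 points below the lower dotted line.

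The upstream 250 bases of the 2 higher Hist3 genes are shown because these neighbours differed together. They are from RefSeq on GRCm38.p6, Hist3h2a at chr11:58954435-58954684 and Hist3h2ba at chr11:58948661-58948910, both on the plus strand, with matches to the motifs below in capitals.
Hist3h2a: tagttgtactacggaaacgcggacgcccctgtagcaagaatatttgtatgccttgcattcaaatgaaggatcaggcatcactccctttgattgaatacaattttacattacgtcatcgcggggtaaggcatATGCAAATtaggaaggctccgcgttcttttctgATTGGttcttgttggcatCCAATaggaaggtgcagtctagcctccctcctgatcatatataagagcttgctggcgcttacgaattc
Hist3h2ba: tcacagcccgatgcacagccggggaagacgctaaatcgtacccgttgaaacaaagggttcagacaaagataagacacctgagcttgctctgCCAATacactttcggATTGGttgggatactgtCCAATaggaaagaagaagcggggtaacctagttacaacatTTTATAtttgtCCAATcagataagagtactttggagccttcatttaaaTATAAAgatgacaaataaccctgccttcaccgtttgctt

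A RefSeq promoter was found for 43 members, 44 promoters in all, and searched on both strands for TATAAA (the TATA box), CCAAT and the octamer ATTTGCAT. TATAAA was in 22 of the 44 (50.0%), against 12.4% of 32851 promoters of the same length. CCAAT was in 36 (81.8%), against 33.8%, and in every H1, H2a and H2b promoter. The octamer was in 13 (29.5%), against 1.60%, in 7 of 14 H2a and 6 of 10 H2b promoters. It was found in Hist3h2a and not in Hist3h2ba. A match describes the letters only.

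Genes that act beside the clustered histones are given from lists chosen with earlier results of these data known. S phase genes, which copy DNA when new histones are made, were at least 2-fold lower in 24 of 25, with a median of -1.72 and a summed level, in multiples of the 75th percentile, of 467 on the control and 136 on the miR-153 array. Tk1 (-3.03), Pole (-2.44), Ccna2 (-2.39), Rrm2 (-2.38), Uhrf1 (-2.14) and Mcm6 (-2.06) differed most, and Mcm7 (-0.91) was the one between. Of 10 other proliferation markers 9 were measured on both arrays and all 9 were lower, with a median of -2.37. Among them were Bub1 (-2.73), Ccnb2 (-2.52) and Mki67 (-2.37), while Aurkb was at least 10.8-fold higher on the control array. Compared with these, the members' own median of -0.36 lay nearer to that of all genes. The part of proliferation in the histone differences was not tested.

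**Figure D4:**
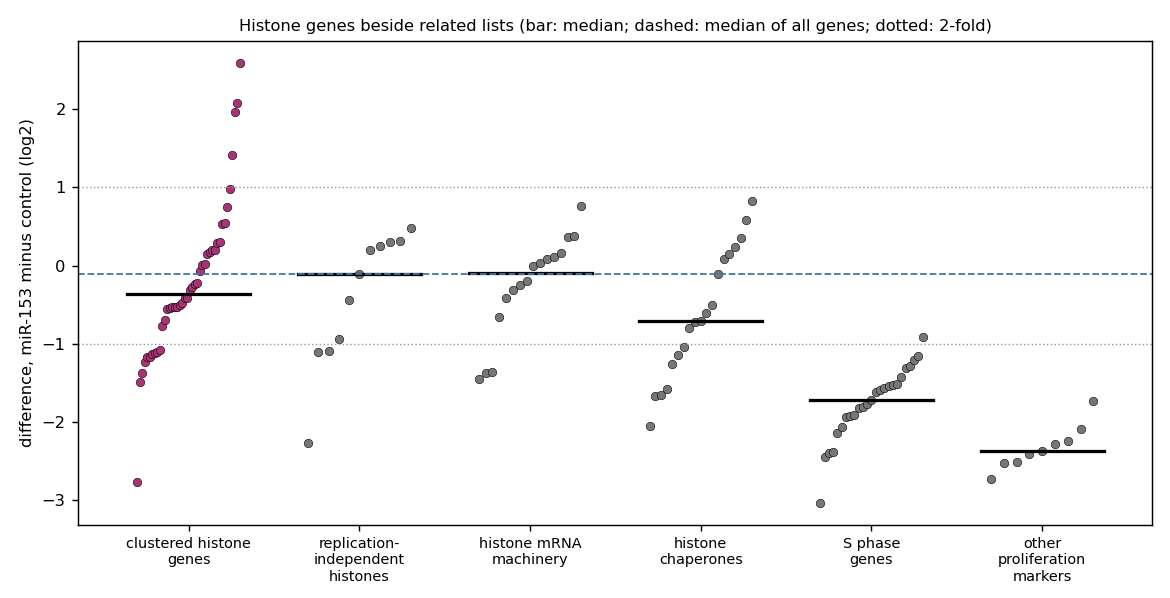
Difference (log2, miR-153 minus control) of each gene measured on both arrays, for the clustered histone genes (42) and 5 related lists; bars are medians, the dashed line is the median of all genes and dotted lines mark 2-fold. Histone members span from -2.76 to 2.58, while 24 of 25 S phase genes lie below the lower dotted line.

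The histone mRNA machinery makes, cuts and turns over the clustered mRNAs. Of 18 genes 16 were measured, 3 were lower and 0 higher, with a median of -0.10. The 3 were Cdk2 (-1.44) and Ccne1 (-1.37), the kinase and cyclin that switch on histone transcription at S phase entry, and Lsm11 (-1.36), a part of the U7 particle that cuts the mRNA. A second probe of Ccne1 gave -0.59, so its call depends on the probe. Ncbp1 (0.00) and Lsm10 (0.04) differed least. Slbp, which binds the stem-loop and is named here after its value was seen, had -0.31, and Npat, the coactivator of the clustered genes, was not well above background on either array.

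Replication-independent histones replace the clustered ones outside S phase. All 11 were measured, 3 were lower and 0 higher, with a median of -0.10; under quantile normalization, spike-in scaling and lowess 1 was lower, Cenpa. Cenpa, the H3 form of centromeres, had 3.20 on the control and 0.93 on the miR-153 array (-2.27). H2afz had 7.96 and 6.85 (-1.11), and -0.48, -0.87 and -0.50 in those 3 settings. H2afj had 8.37 and 7.28 (-1.09) by its brighter probe, which shares a run of 20 bases with 5 H2a members, and 0.01 by a second probe that shares none, so its lower call depends on the probe. H2afy (-0.10) and H2afv (0.20) differed least.

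Histone chaperones carry new histones to DNA. Of 19 measured 7 were lower and 0 higher, with a median of -0.71. Under quantile normalization, spike-in scaling and lowess 6, 5 and 6 were lower, with medians of -0.31, -0.47 and -0.32. Spike-in scaling also gave 1 higher. Chaf1b (-2.05) and Chaf1a (-1.26), of the assembly factor that works behind the replication fork, Asf1b (-1.67), Hjurp (-1.65), Mcm2 (-1.58) and Hat1 (-1.14) differed most; a second Hat1 probe gave -0.98, just short of 2-fold. The remaining lower one was Nasp (-1.04), named here after its value was seen. Another Nasp probe gave -0.05, so its call depends on the probe. Daxx (0.08) and Ubn1 (-0.10), which serve replacement histones, differed least. Germline histones outside the clusters had 2 of 5 genes measured, both within 2-fold, with a median of -0.09.

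Markers of NSPCs and of their neural progeny differed beside the histone genes, and their part was not tested. All 10 NSPC markers, among them Sox2, were measured on both arrays, with a median of 0.17. Of these, 3 were higher (Hes5 2.44, Prom1 1.74 and Sox1 1.15, the last with a second probe at 0.40) and 0 lower. In sign 6 were above 0 and 4 below: Nes (-0.95), Vim (-0.72), Pax6 (-0.69) and Slc1a3 (-0.15), named here after their values were seen. The summed level of the 10 was 731 on the control and 730.3 on the miR-153 array. Fabp7 (0.19) and Vim (-0.72) gave most of both sums and differed in opposite directions. Of 9 neuron markers 7 were higher, with a median of 2.09 and Dcx at 2.97, and the sum went from 50.5 to 179. Of 7 oligodendrocyte markers 4 were higher, with a median of 1.45 and Cnp at 2.88. The other 3 were below 0: Olig2 (-0.57), Olig1 (-0.38) and Mog (-0.04), named here after their values were seen. The sums were 81.6 and 81.0, and Olig1 gave most of both. Of 6 astrocyte markers 1 was higher (S100b, 1.44), with a median of 0.74 and sums of 17.7 and 35.0. Under normexp, quantile normalization, spike-in scaling and lowess 2 or 3 astrocyte markers were higher. In bulk RNA, fewer cells of a type and less RNA per cell cannot be told apart.

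Markers of less related cell types are given next. Of 6 pluripotent cell markers 4 were measured on both arrays and 3 were lower (Esrrb -2.48, Klf4 -1.60 and Dppa5a -1.44), with a median of -1.52 and sums of 7.19 and 3.11. Pou5f1 was well above background with miR-153 only. Its level was not higher there (-4.18 on the control and -4.47 on the miR-153 array), so it has no bound. Of 7 mesenchymal and endodermal markers 5 were measured and 2 were higher (Pdgfrb 2.08 and Col1a1 1.10, the latter 0.86 with normexp), with a median of 0.45 and sums of 9.63 and 13.0. Of 6 blood and endothelial markers only Pecam1 was measured (-0.26), and their sums were 0.200 and 0.158.

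Technical spread could be measured within the arrays only and says nothing of cultures. Repeat spots of a probe differed by a median SD of 0.075 (263 probes), and probes of the same gene by an SD of 0.47 (3882 genes). The 75th percentile of signal was 435 for control and 549 for miR-153, 52.5% and 55.6% of spots were well above background, and 0 non-control spots were flagged as saturated.

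**Figure D5:**
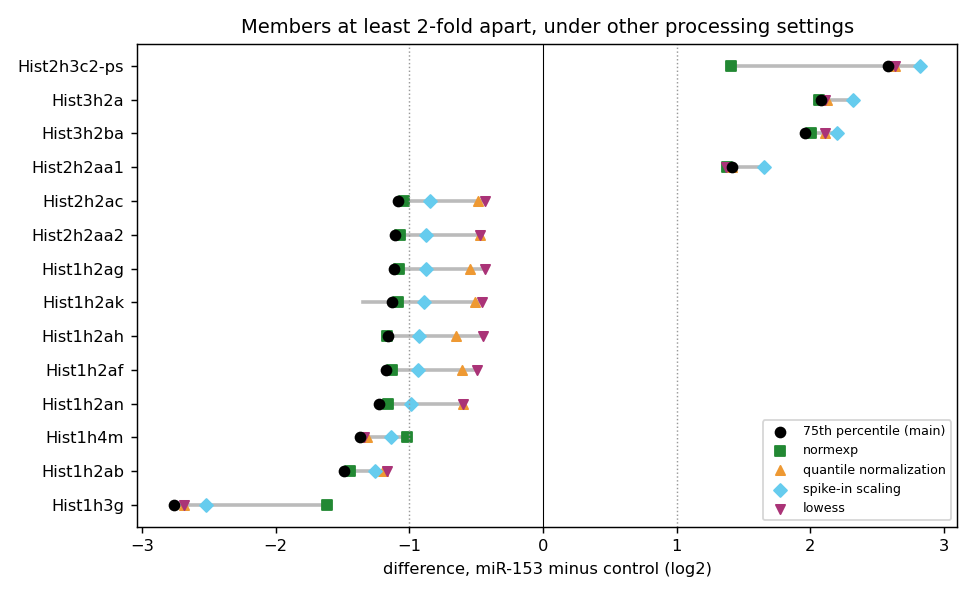
Difference (log2, miR-153 minus control) of the 14 members at least 2-fold apart, under the 75th percentile scaling (black) and 4 other settings (coloured); the grey bar spans all 9 settings and dotted lines mark 2-fold. The 4 higher members and Hist1h3g, Hist1h2ab and Hist1h4m stay outside the dotted lines, and the other 7 H2a members cross the lower one.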

How the data were processed

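Gene expression was measured on 1-colour Agilent arrays (mouse build mm9 per the file headers), 1 control and 1 miR-153 array. The authors deposited scanner intensity values made by Agilent Feature Extraction; the submitters' processing notes give version 10.7.3.1. The intensity used, the processed signal, has its background already subtracted, per the file headers, and is linear. The authors' series table, also of intensity, equals that signal divided by 381 (control) and 485 (miR-153), with medians of 0.0662 and 0.0614, so it is linear and not centred, and it holds 0 columns of other samples.

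Here, each level is log2 of the processed signal minus that of the array's 75th percentile over 59305 non-control spots. Outlier spots (229) were left out and repeat spots averaged, giving 55674 probes, and the brightest probe stood for a gene. Only genes well above background on both arrays entered medians and counts. Probe coordinates are as deposited, on mm9 and counted from 1; RefSeq tables of GRCm38.p6 gave names, promoters and the microRNA, and no position was converted. The 2 arrays are the limit on precision; no spread between cultures could be measured.

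The members and lists were chosen with earlier results of these data known. Values were given for, in each histone type, up to 5 members with the largest difference, the 2 with the smallest, every member at least 2-fold higher and every bound of at least 2-fold. For lists they were given for up to 6 genes with the largest difference past 2-fold and up to 2 with the smallest. Exceptions are named as such, and 1 gene of the oligodendrocyte list is not reported here and was left out of its values.

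Alternatives were normexp with an offset of 50 (R 4.3.3, limma 3.58.1), quantile normalization, spike-in scaling (280 spots), lowess, the mean of all probes, no filter on dim probes, outlier spots kept, the series table, and a 1.5-fold rule. The counting was tested on simulated data. Python 3.11.15 with numpy 2.4.6, pandas 2.3.3, statsmodels 0.14.6 and matplotlib 3.10.9 did the rest.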

Additional observations from a re-analysis of the deposited data

How the results depend on the processing

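The number of members at least 2-fold lower, 10 with scaling to the 75th percentile, was 3 under quantile normalization, spike-in scaling and lowess, which bring the 7 bright H2a members of shared sequence inside 2-fold. It stayed at 10 with normexp, with the mean of all probes, with outlier spots kept and with the series table, and was 12 with no filter on dim probes and with a 1.5-fold rule. The number higher was 4 or 5 under the 2-fold rule, beside 5.87% to 13.8% of all genes. With the 1.5-fold rule it was 6, beside 18.6% of all genes. The median difference of the members ranged from -0.41 to -0.12. Of the 42 measured members, 6 turned sign in some setting, each with a difference near 0 there: Hist1h1t, Hist1h2aa, Hist1h4k, Hist2h2ab, Hist2h2bb and Hist2h4. The median of all genes ranged from -0.13 to 0.13 with the filter on dim probes and was -0.32 without it. No paired analysis was possible because each group holds 1 array and the result comes from no test. Signal over background limits the dimmest members, of which 7 were not measured on both arrays, and 1 array per group limits the rest.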
